A study of Xenopus laevis with 25 samples.

Results

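The Hedgehog signalling genes examined here are 9 symbols chosen by name: the ligands shh, dhh and ihh, the receptor ptch1, the ligand-binding inhibitor hhip, the signal transducer smo, and the transcription factors gli1, gli2 and gli3. They were found by the gene symbol that the authors' deposited comparison table gives to each transcript, and they account for 10 of 22891 transcripts, ihh having 2 and every other symbol 1. Of these 10 transcripts, 8 passed the filter on low counts that 16967 transcripts passed in all; both ihh transcripts failed it. The libraries were made from poly(A)-selected RNA of embryos at 12, 13, 14, 15 and 16 hours post fertilisation (hpf), and each hour has 2 libraries labelled wild type and 3 labelled RNF20 morpholino, 25 in all. RNF20 is the ligase that attaches a single ubiquitin to histone H2B, and a morpholino is an antisense oligomer that blocks translation or splicing of its target RNA. The series title names H2B ubiquitination, cilia motility and heart development. The labels name no control morpholino, do not say whether wild-type embryos were injected, and do not say whether libraries of a group came from separate clutches, so every p-value measures the spread between these libraries, which may be technical.

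Hedgehog proteins are secreted signals. In cells that receive none, the membrane protein Ptch1 keeps Smo inactive; ligand binding to Ptch1 releases Smo, and in vertebrates the relay from Smo to the Gli proteins depends on the primary cilium. Gli2 acts mainly as an activator and Gli3 mainly as a repressor once it has been cleaved in the absence of signal, while gli1, ptch1 and hhip are themselves switched on by the pathway in many vertebrate tissues, so their RNA is widely used as its readout. In early vertebrate embryos Shh from notochord and floor plate patterns the neural tube and the somites. The RefSeq gene table for Xenopus laevis lists cephalic hedgehog as another name of dhh and banded hedgehog as another name of ihh.

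Levels were compared between genes as TPM, the abundance per transcript length that the authors deposited. In wild type the transducer smo stood highest of the 9, at a mean of 86.3 ± 7.05 TPM (SD, n = 10), above 91.5% of all transcripts. The ligand dhh followed at 59.2 ± 11.9 TPM, then shh at 43.7 ± 9.75 TPM, gli3 at 39.5 ± 2.73 TPM and gli2 at 28.6 ± 2.30 TPM. The receptor ptch1 at 13.6 ± 1.77 TPM and gli1 at 13.4 ± 0.967 TPM were nearly level, hhip stood at 1.76 ± 0.544 TPM, and ihh was the lowest at 0.252 ± 0.208 TPM (all SD, n = 10). Pooled over the hours, wild-type ranges of neighbours in this order overlapped for smo with dhh, dhh with shh, shh with gli3, and ptch1 with gli1. Within libraries smo stood above dhh in 10 of 10 and dhh above shh in 9 of 10, while shh stood above gli3 in 5 and ptch1 above gli1 in 6, so the order of the last 2 pairs changed from library to library. They did not overlap for gli3, whose lowest wild-type library was at 37.0 TPM, with gli2, whose highest was at 32.0 TPM, nor for gli1 with hhip or hhip with ihh. The annotated shh transcript is 315 bases long while the dhh transcript has 4362, so shh's TPM rests on few reads, from 36 to 195 per library. Counts behind hhip ran from 11 to 73 per library and those behind ihh from 0 to 23, against 844 to 3695 for smo.

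The transcript identifiers are those of Xenopus tropicalis, although the labels name Xenopus laevis, whose genome holds a duplicated set of genes. In the RefSeq table for Xenopus laevis each of the 9 symbols has 2 copies, 18 genes in all. If the embryos were Xenopus laevis, each value below may combine both copies, and reads that match the other species' sequence poorly would be missed; neither was tested.

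Library totals ran from 12.8e6 to 36.2e6 estimated counts. The RNA of the targeted gene rnf20 rose in the morpholino arm: it ran from 55.4 to 101 CPM (TMM-scaled counts relative to library size, median 72.7) against 38.2 to 80.04 CPM (median 63.2) in wild type, a mean log2 difference of 0.31 ± 0.09 in edgeR's quasi-likelihood test (SE, adjusted p = 0.02005). It was not called with library totals as the scaling (0.15, adjusted p = 0.321), from 14 to 16 hpf alone (0.04, adjusted p = 0.878) or on sums over the hours (0.30, adjusted p = 0.460). The labels do not say whether the morpholino blocks translation or splicing, so the RNA level does not check the knockdown. The library of morpholino replicate 3 at 16 hpf stood apart: it correlated with its group mates at r = 0.843 and 0.860 across transcripts, and its scaling factor of 0.673 was the lowest of the 25. Within this library transcripts differed by length. Relative to the mean of replicates 1 and 2 at 16 hpf, transcripts of up to 1000 bases had a median ratio of 1.28 and those over 3500 bases a median ratio of 0.475; at 12 to 15 hpf the same 2 length classes lay between 0.843 and 1.04 in replicate 3. The part of transcript length in the results below was not tested.

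This library weighed heavily on the Hedgehog genes. In CPM, replicate 3 at 16 hpf held gli1 at 4.15, gli2 at 14.0, gli3 at 15.9 and ptch1 at 5.42, where its 2 group mates held gli1 at 22.7 and 23.8, gli2 at 74.3 and 79.1, gli3 at 83.2 and 96.7, and ptch1 at 31.9 and 32.7. As ratios to the mean of replicates 1 and 2 these were 0.178 for gli1, 0.182 for gli2, 0.177 for gli3 and 0.168 for ptch1, so the 4 genes were low by nearly the same factor. The median ratio over 14214 transcripts with at least 1 CPM was 0.850, and 12.7% of them lay below gli1. Among transcripts over 3500 bases, the class that holds these 4 genes, 24.5% had a ratio of 0.2 or less. The transcripts of these 4 genes measure from 3531 bases (gli1) to 4578 bases (gli3); dhh, of similar length at 4362 bases, stood at a ratio of 0.645, smo at 0.662, shh at 0.518 and hhip at 0.778. Replicate 3 also departed at 15 hpf, where gli2 reached 167 CPM and dhh 260 CPM, 1.92 and 1.89 times the mean of replicates 1 and 2, with gli1 at 1.43 times. At 12 to 14 hpf it held gli1 at 1.17 to 1.31 times and gli3 at 0.533 to 0.712 times that mean. Each comparison is therefore given with and without the 5 libraries of morpholino replicate 3, which left 20 libraries and 16668 tested transcripts. That choice was made with these values in view, so a call without replicate 3, here or below, is no independent support.

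**Figure D1:**
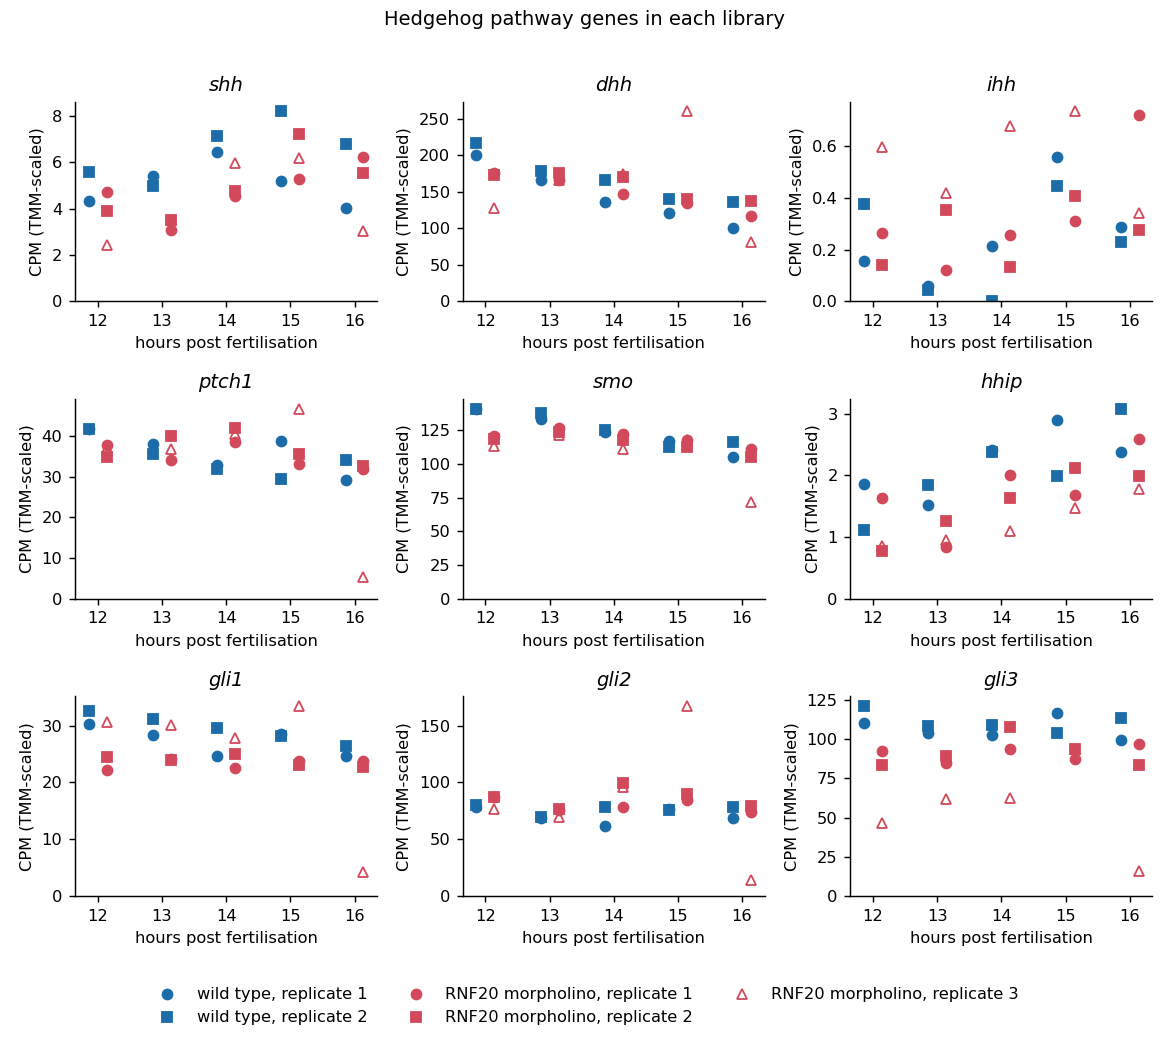
CPM (TMM-scaled, linear axes from 0) of each of the 9 genes by hours post fertilisation, 1 point per library; blue is wild type, filled red is RNF20 morpholino replicate 1 or 2, and open red triangles are morpholino replicate 3. The triangles of gli1, gli2, gli3 and ptch1 drop at 16 hpf, while wild-type gli3 stays between 99.4 and 121 CPM over all hours.

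**Figure D2:**
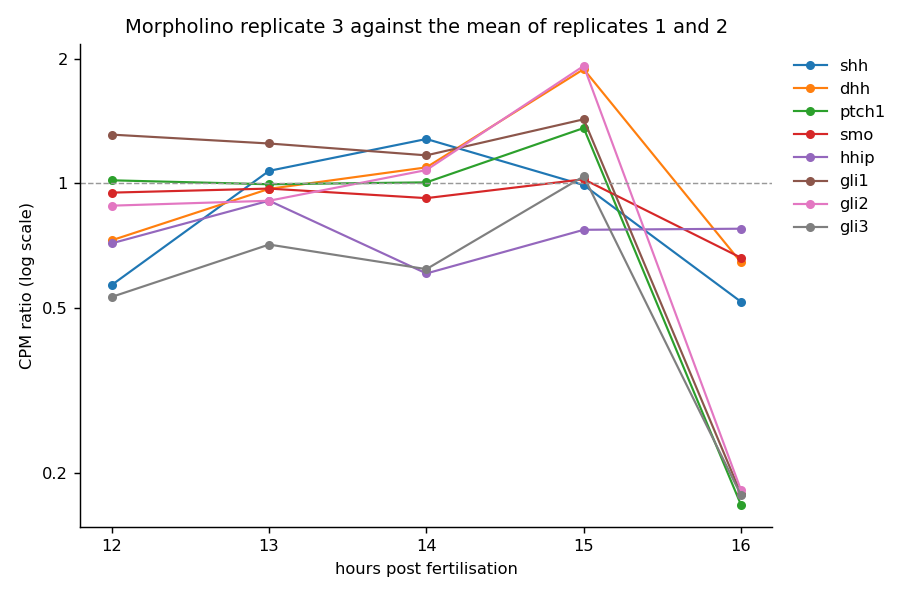
CPM of morpholino replicate 3 divided by the mean of morpholino replicates 1 and 2 at the same hour (log axis), 1 line per gene that passed the filter; the dashed line marks equal levels. At 16 hpf gli1, gli2, gli3 and ptch1 lie together at 0.168 to 0.182, and at 15 hpf gli2 and dhh lie at 1.92 and 1.89.

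The first comparison asked whether the morpholino arm differed from wild type over the 5 hours, as the mean of the 5 hourly log2 differences in edgeR's quasi-likelihood test with Benjamini-Hochberg adjustment over all 16967 transcripts. Of the 8 Hedgehog transcripts tested 1 was called at an adjusted p under 0.05: hhip fell by 0.52 ± 0.17 on the log2 scale (SE, adjusted p = 0.0341). Over all transcripts the same rule called 27%, with 2353 higher and 2228 lower, so 1 of 8 is no larger a share than the background. The median difference of the 8 was -0.19 against -0.0029 over all transcripts, and 6 of the 8 lay below 0. An unadjusted p under 0.05 was found for 3 of the 8, against 6946 of all 16967, so this too is no larger a share. With library totals as the only scaling the median of all transcripts was -0.16 and the calls split into 1353 higher and 2816 lower. In whole embryos, fewer cells of a type and less RNA per cell cannot be told apart. The fit took all 25 libraries as independent. Yet libraries with the same arm and replicate number had correlated deviations between hours. Their r ran from 0.0274 (morpholino number 2) to 0.535 (morpholino number 3). Standard errors and p-values of the mean difference, here and without replicate 3, may therefore be too small. With the replicate number as a block hhip stood at -0.40 (adjusted p = 0.0999).

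Without morpholino replicate 3 the Gli genes and smo passed the test and hhip did not. With these 20 libraries 4 of the 8 were called: gli1, gli3 and smo fell and gli2 rose, against 36.8% of all transcripts called under the same rule. The standard error of gli1 went from 0.19 to 0.04 and that of gli3 from 0.20 to 0.05 when replicate 3 was left out, while their differences stayed negative. Replicate 3 had been set aside for its departure in these same genes, so narrower errors were built into the choice. Leaving out the replicate 3 library at 16 hpf alone gave 3 calls, hhip, gli3 and smo, all lower, against 34.2% of all transcripts.

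When the counts of each replicate number were summed over the hours, giving 2 wild-type and 3 morpholino sums, edgeR called 0 of the Hedgehog transcripts and 0 of all 18123 tested, and 0 of the Hedgehog transcripts had an unadjusted p under 0.05. Without replicate 3 (2 sums against 2, a setting chosen after seeing the data) 0 were called and 2 had an unadjusted p under 0.05, gli3 and gli1, with adjusted p = 0.13 and 0.17. DESeq2 was not run on the sums. Tests on sums do not take the hours of a replicate number as independent. Whether this accounts for the fewer calls was not tested.

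**Figure D3:**
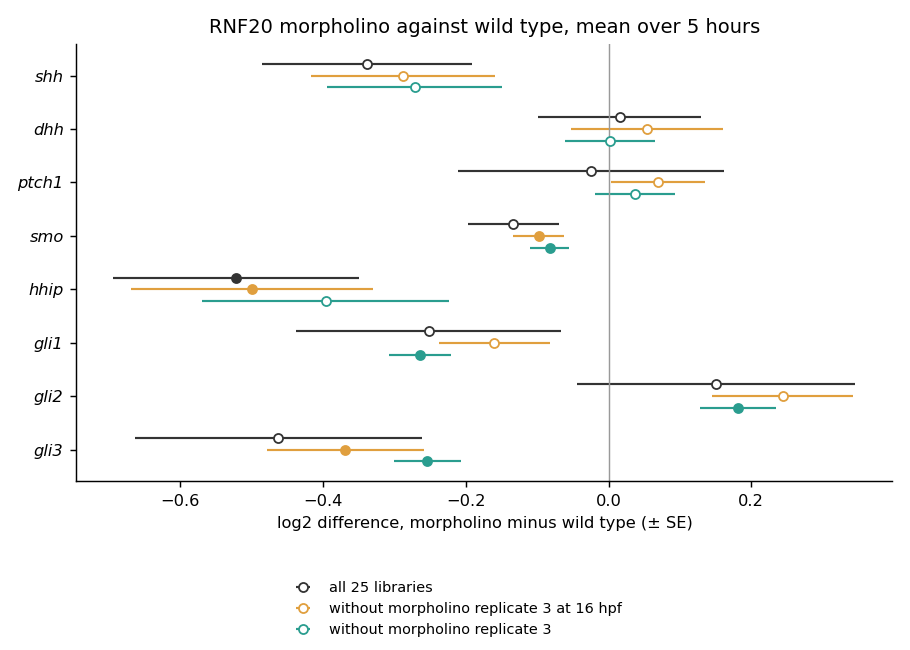
Mean log2 difference, morpholino minus wild type, over the 5 hours with its standard error for the 8 transcripts that passed the filter, from all 25 libraries (black), without morpholino replicate 3 at 16 hpf (amber) and without morpholino replicate 3 at any hour (green); filled points have an adjusted p under 0.05. gli3, hhip, shh, gli1 and smo lie below 0 in all 3 sets and gli2 above 0, and the bars of the Gli genes shorten without replicate 3.

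Among the ligands, shh ran from 4.03 to 8.201 CPM (median 5.52) in the 10 wild-type libraries and from 2.45 to 7.24 CPM (median 4.71) in the 15 morpholino libraries. The arms overlapped over the whole series, and 6 of the 15 morpholino libraries lay below the lowest wild-type one. At 13 hpf the wild-type libraries held 5.43 and 4.97 CPM and the morpholino libraries 3.08, 3.51 and 3.53 CPM; at 14 hpf they held 6.44 and 7.15 against 4.53, 4.77 and 5.95 CPM. All morpholino libraries lay below both wild-type libraries at these 2 hours and at no other. Shares over all transcripts were computed only for 4 or 5 hours without overlap. None therefore stands beside these counts, or beside the fewer hours given for other genes below. The mean difference was -0.34 ± 0.15 (SE, log2, adjusted p = 0.0934) and -0.27 ± 0.12 without replicate 3 (adjusted p = 0.102), neither past the threshold. Markers of notochord and floor plate, the tissues that make Shh, had a median difference of -0.33 over 10 tested transcripts, 2 higher and 2 lower, and of -0.18 without replicate 3, 1 higher and 2 lower; their summed TPM was 529 to 664 in wild type, 504 to 593 in morpholino replicates 1 and 2, and 323 to 677 in replicate 3. Over all transcripts 2353 of 16967 were higher and 2228 lower, or 2954 and 3180 of 16668 without replicate 3. The part of notochord and floor plate in the shh values was not tested.

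The ligand dhh ran from 99.97 to 217 CPM (median 153) in wild type and from 82.1 to 260 CPM (median 166) in the morpholino arm. The arms overlapped widely and the mean difference was 0.02 ± 0.11 (adjusted p = 0.963). At 12 hpf alone all morpholino libraries (176, 174 and 127 CPM) lay below both wild-type ones (201 and 217 CPM), a difference of -0.39 ± 0.25 with adjusted p = 0.667. Too few reads fell on ihh for the filter: it was at 0 to 14 counts per wild-type library (median 3.5) and 2 to 23 per morpholino library (median 6). Summed over its 2 transcripts it passed the filter, with a mean difference of 1.04 ± 0.40 (adjusted p = 0.0516). Its highest libraries were morpholino replicate 3 at 15 hpf at 0.732 CPM and replicate 1 at 16 hpf at 0.717 CPM, and the arms overlapped. Of its 25 values, 14 were whole numbers (within 0.001) for each transcript, so reads were divided between them and the split is uncertain.

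The receptor ptch1 showed no constant difference between the arms. Wild-type libraries held 29.1 to 41.8 CPM (median 34.7) and morpholino libraries 5.42 to 46.7 CPM (median 36.8); without the 16 hpf library of replicate 3 the lowest morpholino value was 31.9 CPM. The mean difference was -0.02 ± 0.19 (adjusted p = 0.965), and 0.04 ± 0.06 without replicate 3 (adjusted p = 0.653). At 12 hpf both wild-type libraries stood at 41.8 CPM and the morpholino libraries at 37.8, 34.8 and 36.9 CPM, all lower; at 14 hpf wild type stood at 32.8 and 31.8 CPM and the morpholino libraries at 38.6, 42.0 and 40.5 CPM, all higher.

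The inhibitor hhip, which binds Hedgehog ligands at the cell surface, was the gene called over all libraries. Wild-type libraries held 1.12 to 3.08 CPM (median 2.19) and morpholino libraries 0.768 to 2.59 CPM (median 1.63). The arms overlapped over the series, and 5 of 15 morpholino libraries lay below the lowest wild-type one. At 13 hpf wild type held 1.52 and 1.84 CPM against 0.846, 1.26 and 0.958 CPM, and at 14 hpf 2.41 and 2.38 against 2.01, 1.63 and 1.105 CPM, with no overlap at either hour. These values rest on 14 to 40 counts per library, and the share of all transcripts with no overlap at 2 hours was not computed. Leaving out 1 library at a time kept the call in 14 of 25 cases. It was lost, with adjusted p from 0.0507 to 0.0984, on omission of the replicate 1 wild-type library of 12, 13, 14 or 15 hpf, the replicate 2 wild-type library of 13, 14 or 16 hpf, morpholino replicate 2 of 12 hpf, or morpholino replicate 3 of 12, 13 or 14 hpf. Without all of replicate 3 the difference was -0.40 ± 0.17 (adjusted p = 0.0908).

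The transducer smo averaged lower in the morpholino arm by a small margin that edgeR did not call over all libraries. It ran from 105 to 141 CPM (median 124) in wild type and from 71.5 to 127 CPM (median 118) in the morpholino arm. At 12 hpf the wild-type libraries held 140.5 and 141 CPM and the morpholino libraries 121, 118 and 113 CPM. The arms also did not overlap at 13 and 14 hpf, while at 15 and 16 hpf they did. At 14 hpf the gap was narrow, with the lowest wild-type library at 123.2 CPM and the highest morpholino library at 122.3 CPM. For such separation at 3 hours no share over all transcripts was computed. The mean difference was -0.13 ± 0.06 over all libraries (adjusted p = 0.126), -0.10 ± 0.04 without morpholino replicate 3 at 16 hpf (adjusted p = 0.0442) and -0.08 ± 0.03 without all of replicate 3 (adjusted p = 0.0327).

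Of the Gli factors, gli3, known mainly as the pathway's repressor, separated the arms most fully. The 2 wild-type libraries held 109.9 and 121 CPM at 12 hpf, 104 and 108 at 13 hpf, 103 and 109 at 14 hpf, 116 and 104 at 15 hpf, and 99.4 and 114 at 16 hpf. Morpholino replicates 1 to 3 held 92.1, 83.2 and 46.7 CPM at 12 hpf, 84.7, 89.4 and 62.0 at 13 hpf, 93.8, 108 and 62.6 at 14 hpf, 87.1, 93.5 and 93.9 at 15 hpf, and 96.7, 83.2 and 15.9 at 16 hpf. Thus 14 of the 15 morpholino libraries lay below the lowest wild-type library of the series, replicate 2 at 14 hpf being the exception, and the arms did not overlap at 4 of the 5 hours. All morpholino libraries lay below wild type at 4 or 5 hours for 9.68% of the 16967 transcripts. That share belongs to the hourly separation, and none was computed for the 14 of 15 libraries. The mean difference was -0.46 ± 0.20 (adjusted p = 0.0926), -0.54 without morpholino replicate 1 at 16 hpf (adjusted p = 0.0448), -0.37 ± 0.11 without replicate 3 at 16 hpf (adjusted p = 0.0182) and -0.25 ± 0.05 without all of replicate 3 (adjusted p = 0.00119).

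In CPM the activator gli1, itself a common readout of the pathway, was lower in morpholino replicates 1 and 2 and not in replicate 3 before 16 hpf. This contrast depends on the scaling. In TPM, which lacks the TMM factor, replicate 3 lay below both wild-type libraries at 12, 13 and 14 hpf. It held 12.2, 11.7 and 11.0 TPM there, and the lower wild-type library held 13.8, 13.7 and 12.0 TPM. At 15 hpf it held 13.9 TPM, between the wild-type values of 14.5 and 13.1 TPM. Wild-type libraries ran from 24.6 to 32.6 CPM (median 28.5) and morpholino replicates 1 and 2 from 22.1 to 24.98 CPM (median 23.8, n = 10). Those 10 libraries varied little, and 9 of them lay below the lowest wild-type one, a count for which no share over all transcripts was computed. Replicate 3 held 30.6, 30.1, 27.8 and 33.5 CPM from 12 to 15 hpf, within or above the wild-type range, and 4.15 CPM at 16 hpf. The mean difference was -0.25 ± 0.19 over all libraries (adjusted p = 0.320), -0.16 ± 0.08 without replicate 3 at 16 hpf (adjusted p = 0.119) and -0.26 ± 0.04 without all of replicate 3 (adjusted p = 5.6e-04). Replicates 1 and 2 lay below both wild-type libraries at 4 of 5 hours for gli1 and for gli3, as they did at 4 or 5 hours for 12.6% of all transcripts.

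The main activator gli2 stood higher in morpholino replicates 1 and 2, with no difference called over all libraries. Wild-type libraries ran from 61.3 to 80.1 CPM (median 76.2), morpholino replicates 1 and 2 from 74.3 to 99.3 CPM (median 82.0, n = 10), and replicate 3 from 14.0 to 167 CPM. In CPM replicates 1 and 2 lay above both wild-type libraries at 4 of 5 hours, as they did at 4 or 5 hours for 11% of all transcripts. The mean difference was 0.15 ± 0.20 over all libraries (adjusted p = 0.596) and 0.18 ± 0.05 without replicate 3 (adjusted p = 0.0172).

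Because gli3 and gli2 were measured in the same library, their ratio does not depend on the scaling between libraries. It was formed after the values of both genes had been seen, so it is given with no test. In the 10 wild-type libraries gli3 TPM divided by gli2 TPM ran from 1.27 to 1.55 (median 1.38). In morpholino replicates 1 and 2 it ran from 0.891 to 1.21 (median 0.995, n = 10). In morpholino replicate 3 it was 0.564, 0.834, 0.609, 0.522 and 1.06 from 12 to 16 hpf. Every morpholino library lay below every wild-type library, including replicate 3 at 16 hpf, where both genes were low. No count was made of other transcript pairs whose ratio separates the arms in this way, so its rarity is unknown. As shares of the summed TPM of the 3 Gli genes, gli3 made up 48.4 ± 1.28% in wild type (SD, n = 10) and 39.9 ± 6.03% in the morpholino arm (SD, n = 15). The gli2 share was 35.1 ± 1.37% and 44.2 ± 4.68%, and the gli1 share 16.5 ± 0.953% and 15.9 ± 3.10%. In morpholino replicates 1 and 2 alone the shares were 43.1 ± 1.88% for gli3, 42.3 ± 1.97% for gli2 and 14.6 ± 0.924% for gli1 (SD, n = 10). Thus gli3 held the largest share in each wild-type library, while in the morpholino arm the order of the gli3 and gli2 means turned with replicate 3.

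**Figure D4:**
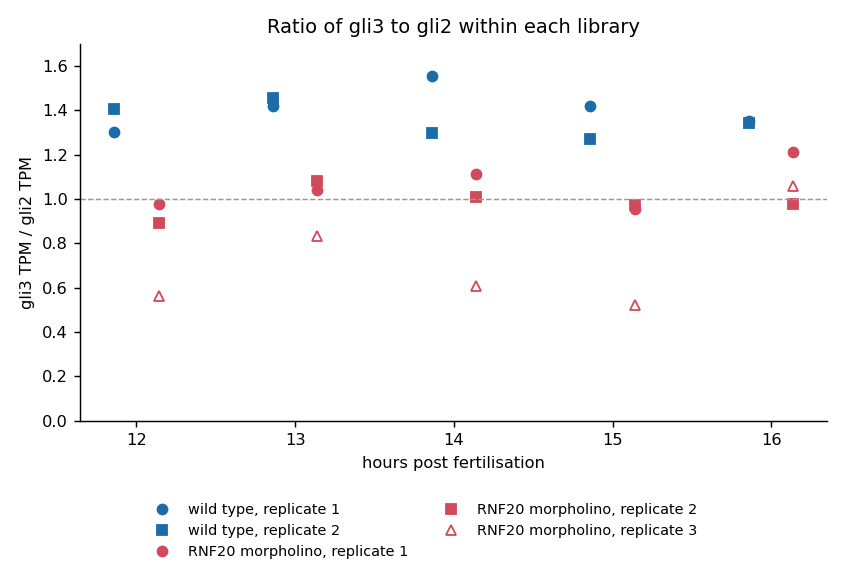
Ratio of gli3 TPM to gli2 TPM within each library (linear axis from 0) by hours post fertilisation; blue is wild type, filled red is morpholino replicate 1 or 2, open triangles are morpholino replicate 3, and the dashed line marks equal TPM. All 10 wild-type libraries lie at 1.27 or above and all 15 morpholino libraries at 1.21 or below.

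Taken hour by hour, 0 of the 40 differences of the 8 transcripts were called by edgeR with all libraries, and the smallest adjusted p was 0.413. Of the 40, 0 had an unadjusted p under 0.05, against 1355 to 2194 of all 16967 transcripts at single hours. DESeq2 called 0 of the 40, against 0.925% to 1.97% of all transcripts at single hours, and had 1 unadjusted p under 0.05. Few transcripts were called at any single hour: 0.0472% at 12 hpf, 0.0884% at 13 hpf, 0.124% at 14 hpf, 0.0943% at 15 hpf and 0.2% at 16 hpf. Without replicate 3 these shares were 4.38%, 13.4%, 3.83%, 3.16% and 2.34%, and 2 of the 40 differences were called, both at 12 hpf: gli1 fell by 0.44 ± 0.10 (adjusted p = 0.0271) and smo fell by 0.24 ± 0.06 (adjusted p = 0.0468). At that hour gli3 stood at -0.40 ± 0.11 (adjusted p = 0.0518).

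The second comparison asked how each arm changed from 12 to 16 hpf, as a straight line through its 5 hours. In wild type dhh went from 201 and 217 CPM at 12 hpf to 99.97 and 136 CPM at 16 hpf, a slope of -0.20 ± 0.06 log2 units per hour, and smo from 140.5 and 141 to 105 and 116 CPM, a slope of -0.09 ± 0.04. With all libraries edgeR called 0 of the 8 (dhh adjusted p = 0.0866, smo adjusted p = 0.147), against 2.19% of all transcripts. An unadjusted p under 0.05 was found for 3 of the 8 and for 3423 of all 16967. DESeq2 called 2, dhh and smo, against 8.96% of all transcripts. Deviations of same-numbered wild-type libraries were weakly correlated across the hours (r from 0.103 to 0.172). With the replicate number as a block 2 were called, dhh at -0.21 (adjusted p = 0.0251) and smo at -0.09 (adjusted p = 0.0358). Both were lower with time, against 20.5% of all transcripts called. Both were also called without morpholino replicate 3 at 16 hpf (12.5% of all transcripts called), and dhh without replicate 3 at 15 hpf (4.06%), since the arms share 1 estimate of the spread. Without all of replicate 3, 4 fell in wild type: dhh by 0.21, smo by 0.10, ptch1 by 0.09 and gli1 by 0.07 log2 units per hour (adjusted p = 4.7e-04, 3.2e-04, 0.0183 and 0.0232), against 40.3% of all transcripts.

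In the morpholino arm hhip rose with time, by 0.27 ± 0.08 log2 units per hour (adjusted p = 0.0279), the 1 call among the 8, against 17.7% of all transcripts. Its group means went from 1.09 CPM at 12 hpf to 2.12 CPM at 16 hpf (n = 3 each), and in wild type from 1.49 to 2.73 CPM (n = 2 each), a wild-type slope of 0.23 ± 0.09 (adjusted p = 0.188). The call in the morpholino arm was lost without replicate 2 at 12 or 15 hpf, replicate 3 at 12 hpf or replicate 1 at 16 hpf (adjusted p from 0.0515 to 0.102). The slope of shh in that arm was 0.17 ± 0.07 (adjusted p = 0.0777; 0.22 with adjusted p = 0.0126 without replicate 3 at 16 hpf and 0.22 with adjusted p = 0.0445 without replicate 1 at 12 hpf). The slopes of dhh and smo were -0.09 ± 0.05 and -0.07 ± 0.03 (adjusted p = 0.211 and 0.104); dhh passed the threshold without replicate 3 at 15 hpf (-0.13, adjusted p = 0.0281) and smo without replicate 1 at 16 hpf (-0.09, adjusted p = 0.0481). With the replicate number as a block 3 of the 8 were called, hhip, shh at 0.17 (adjusted p = 0.0403) and smo at -0.07 (adjusted p = 0.0356), against 34.3% of all transcripts. Without all of replicate 3, 4 of the 8 were called in this arm, hhip and shh higher and dhh and smo lower with time, against 45.1% of all transcripts.

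The slopes were not shown to differ between the arms: edgeR called 0 of the 8, none having an unadjusted p under 0.05, and 0% of all transcripts, of which 626 had an unadjusted p under 0.05. DESeq2 called 0 of the 8 and 16 of all transcripts. Within the ligands the balance in TPM moved from dhh toward shh in both arms. The size of these shares depends on the annotated lengths, 315 bases for shh and 4362 for dhh. In CPM the wild-type means were 5.81 for shh and 156 for dhh (n = 10). The share of dhh in the summed TPM of the 3 ligands was 68.0 ± 2.82% at 12 hpf and 52.8 ± 3.77% at 16 hpf in wild type (SD, n = 2 each), and 68.7 ± 3.30% and 53.7 ± 4.79% in the morpholino arm (SD, n = 3 each). The share of shh was 31.8 ± 2.67% and 46.9 ± 3.90% in wild type and 30.8 ± 3.62% and 45.7 ± 4.63% in the morpholino arm. At 12 and 16 hpf the arms differed by less than the spread within an arm. Between them they did not overlap at 2 hours: the share of shh was 39.2 and 35.4% in wild type against 26.8, 28.0 and 29.4% in the morpholino arm at 13 hpf, and 48.3 and 45.9% against 37.6, 35.6 and 40.1% at 14 hpf. How often shares within other gene sets separate the arms this way was not counted. Across the series ihh made up at most 0.906% in any library.

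**Figure D5:**
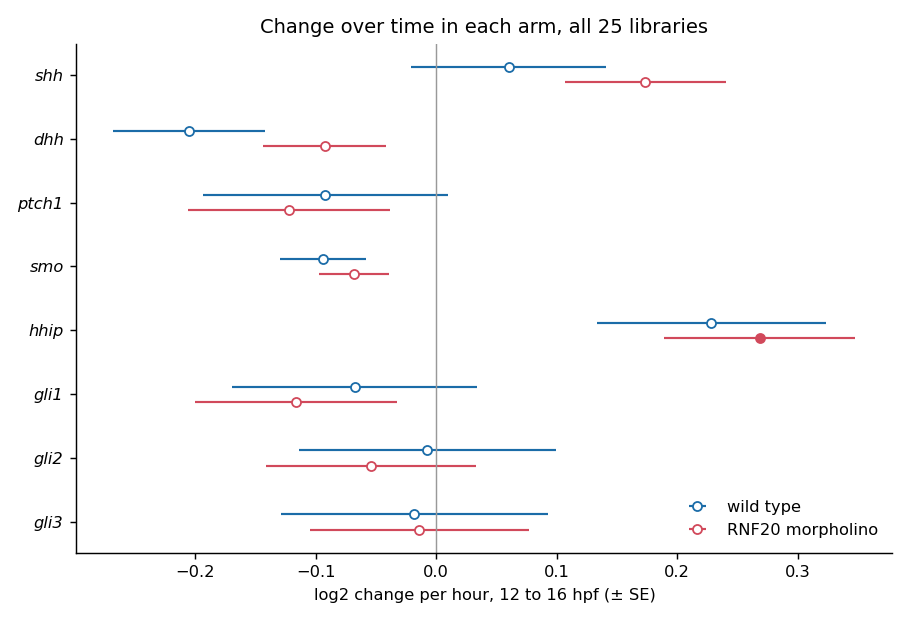
Change in log2 CPM per hour from 12 to 16 hpf with its standard error, in wild type (blue, 10 libraries) and the RNF20 morpholino arm (red, 15 libraries), from all 25 libraries; filled points have an adjusted p under 0.05. In both arms hhip lies to the right of 0 (0.23 and 0.27) and dhh and smo to the left, and hhip in the morpholino arm is the single filled point.

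The third comparison set morpholino libraries at 14, 15 and 16 hpf against wild type 2 hours younger, at 12, 13 and 14 hpf. With all libraries edgeR called 0 of the 8, against 2.23% of all transcripts. An unadjusted p under 0.05 was found for 1 of the 8 and for 2415 of all 16967. DESeq2 called 1, smo, against 5.78% of all transcripts. The values were -0.29 ± 0.08 for smo (adjusted p = 0.0805), -0.43 ± 0.26 for gli3, -0.38 ± 0.24 for gli1, -0.24 ± 0.15 for dhh and 0.20 ± 0.25 for gli2. The differences of hhip and shh lay near 0, at -0.01 ± 0.23 and -0.05 ± 0.19, where the same morpholino hours, 14 to 16 hpf, against wild type of those hours gave -0.48 ± 0.22 (adjusted p = 0.167) and -0.21 ± 0.19 (adjusted p = 0.482). These comparisons share libraries, so their values are given side by side only. smo passed the threshold without morpholino replicate 3 at 16 hpf (-0.23, adjusted p = 0.00693; 5.07% of all transcripts called) and without replicate 1 at 16 hpf (-0.33, adjusted p = 0.0352). Without all of replicate 3, 5 of the 8 were called against 17.1% of all transcripts: gli1 at -0.32 ± 0.06 (adjusted p = 0.00220), dhh at -0.32 ± 0.08 (adjusted p = 0.0193), smo at -0.22 ± 0.04 (adjusted p = 0.00135) and gli3 at -0.22 ± 0.06 (adjusted p = 0.0271) fell, and gli2 at 0.22 ± 0.07 rose (adjusted p = 0.0445).

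Correlations between the Hedgehog genes moved when the 16 hpf library of morpholino replicate 3 was left out. The correlation of log2 CPM between ptch1 and gli1 was 0.943 over 25 libraries and 0.391 over the 24 without it, and between ptch1 and gli3 it was 0.807 and -0.039. The pair dhh and ptch1 stood at 0.691 and 0.736, and shh and hhip at 0.596 and 0.645. The genes most like ptch1 over 25 libraries were sik3 (r = 0.989), atrx (r = 0.988) and unc5b (r = 0.987), at 0.871, 0.852 and 0.837 without that library. Those most like shh were plod3 (r = 0.843), xrcc5 (r = 0.836) and caskin1 (r = 0.818), at 0.822, 0.816 and 0.802 without it. These libraries share hours, arms and replicate numbers, so the coefficients only describe them.

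The rest of the pathway was read from 3 lists of symbols, with counts for the mean difference; of all transcripts 27% were called with all libraries and 36.8% without replicate 3 (2954 higher and 3180 lower of 16668). Of the genes for ligand processing, release and co-receptors 11 of 12 symbols were found and 10 transcripts tested; 1 was higher and none lower, with a median difference of 0.16. The riser was gpc3, a cell-surface glypican known in mouse to restrain Hedgehog signalling. It held 1.15 to 3.79 CPM in wild type and 1.60 to 6.56 CPM in the morpholino arm, 0.70 ± 0.14 (adjusted p = 0.00229). Morpholino libraries at 14 to 16 hpf stood at -0.12 against wild type 2 hours younger (adjusted p = 0.833) and at 0.62 against wild type of those hours (adjusted p = 0.0409). Without replicate 3, 3 of the 10 were higher and 1 lower.

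Of the signal transduction genes 21 of 23 symbols were found and 26 transcripts tested; none was higher and 2 were lower, with a median of 0.02. They were csnk1d, a casein kinase, at 56.0 to 66.4 CPM in wild type and 25.7 to 62.9 CPM in the morpholino arm (-0.37 ± 0.07, adjusted p = 0.00218), and evc2, a protein of the cilium base that aids Smo signalling in mouse, at 8.47 to 12.5 and 2.20 to 10.5 CPM (-0.71 ± 0.25, adjusted p = 0.0444). Against wild type 2 hours younger csnk1d remained called at -0.59 (adjusted p = 0.00156), evc2 stood at -0.50 (adjusted p = 0.532), and gpr161, a ciliary receptor that restrains the pathway in mouse, was the other call at -0.41 (adjusted p = 0.00777). The evc2 difference was -0.37 without replicate 3, and its call held in 8 of the 25 omissions of 1 library. Without replicate 3, 2 of the 26 were higher and 4 lower.

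Of the genes known to respond to Hedgehog or to be patterned by it 15 of 16 symbols were found and 17 transcripts tested; none was higher and 4 were lower, with a median of -0.13. The sclerotome factors pax1 and pax9 were among them, and nkx3-2, also on the list, was not. Values of pax1 ran from 1.28 to 7.23 CPM in wild type and from 0.561 to 5.67 CPM in the morpholino arm (-0.94 ± 0.25, adjusted p = 0.0120). Those of pax9 ran from 0.361 to 1.44 and from 0.0847 to 0.877 CPM (-0.87 ± 0.29, adjusted p = 0.0373). They rest on few reads, with means of 0.794 and 0.402 CPM. The other lower transcripts were 1 of 3 tested for nkx6-1, a ventral neural tube factor, at -0.99 ± 0.34 (adjusted p = 0.0417), and that of mycn. The latter, a growth regulator, stood at -0.56 ± 0.20 (adjusted p = 0.0468) and at -0.28 without replicate 3. The lower nkx6-1 transcript held 8.88 to 14.4 CPM in wild type and 0 to 9.90 CPM in the morpholino arm. The other tested transcripts of nkx6-1 were not called. None of these 4 passed the threshold against wild type 2 hours younger, where pax1 stood at -0.16, pax9 at -0.28, nkx6-1 at -0.79 and mycn at 0.26. Nor did any pass it in edgeR when the same morpholino hours, 14 to 16 hpf, were set against wild type of those hours. There pax1 stood at -0.95 (adjusted p = 0.0676), pax9 at -1.20 (0.0533), nkx6-1 at -0.88 (0.202) and mycn at -0.52 (0.197). When single libraries were left out, the call held in 25 of 25 cases for pax1, 10 for pax9, 6 for nkx6-1 and 10 for mycn, with adjusted p up to 0.113. Without replicate 3, 6 of the 17 were lower and none higher, against 3180 lower and 2954 higher of 16668 transcripts. Paraxial mesoderm gives rise to sclerotome. Its markers summed to 2073 to 4894 TPM in wild type, 1884 to 4046 in morpholino replicates 1 and 2 and 1254 to 2909 in replicate 3. Of its 7 tested transcripts 3 were higher and none lower (4 and none without replicate 3). Beside these and the marker counts below, 2353 of 16967 transcripts were higher and 2228 lower, or 2954 and 3180 of 16668 without replicate 3. Neural plate markers summed to 757 to 1411, 696 to 1228 and 608 to 1227 TPM, with 1 of 9 higher and none lower and a median difference of 0.02; without replicate 3 none was higher and 2 were lower, with a median of -0.08. The part of either tissue in these values was not tested. Endoderm markers summed to 415 to 630, 438 to 603 and 311 to 645 TPM (3 of 11 higher and none lower, or 3 and 1 without replicate 3) and epidermis markers to 12503 to 17359, 11556 to 17536 and 9817 to 14713 TPM (0 of 9 called, or 1 higher without replicate 3). The shares of the pathway lists called, 1 of 10, 2 of 26 and 4 of 17, were each below the 27% of all transcripts called in either direction. All 4 calls of the third list were lower, while 2228 of 16967 transcripts were lower and 2353 higher. Lower calls thus made up a larger share of that list than of all transcripts. The list was chosen with earlier results of these data known, so the larger share is no independent support. No set test was run.

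In the authors' deposited table none of the 9 genes had a q-value under 0.05 at any hour. The share of all transcripts with such a q-value was not computed, so the count does not set these genes apart. The lowest q-value in the authors' deposited table was 0.177, for gli3 at 13 hpf, and the authors' deposited table lists ihh with a value at 15 hpf alone.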

How the data were processed

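The authors' deposited abundance tables hold, per library, estimated counts from kallisto for 22891 transcripts, transcript lengths and TPM, per the submitters' processing notes. The tables of comparisons that the authors deposited for each hour, from sleuth per the same notes, hold p-values, q-values, effects and means on the natural log scale and other variance terms; their effects were turned to morpholino minus wild type by matching their sign to the counts. Versions and the transcriptome build are not given in the sources used here.

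Estimated counts were rounded, filtered by filterByExpr with 10 groups (arm by hour), scaled by TMM and fitted over all 25 libraries with edgeR 4.0.16 (R 4.3.3, limma 3.58.1; DESeq2 1.42.0 as an alternative). CPM was computed with TMM-scaled library totals, and SE is the standard error of a fitted log2 value. P-values were adjusted by Benjamini-Hochberg over all tested transcripts within a comparison, and a transcript was called under 0.05. Between 25.9% and 30.6% of a library's estimated counts were not whole (within 0.001); all values of the Hedgehog genes except ihh were. Columns not used numbered 0. The model was tested on simulated counts, drawn independently for each library with the same fixed dispersion for every transcript. They held no deviant library and no deviations shared by replicate number, so they cannot show how the model behaves with either. The genes, 3 pathway lists and 5 marker lists were chosen with earlier results of these data known. Genes named from a list are its called transcripts, up to 4 by smallest p; the likeness search took the 3 highest correlations for shh and ptch1 among symbols with at least 1 log2 CPM.

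With group means removed, wild-type libraries sharing a number had correlated deviations (r from 0.103 to 0.172, 10 pairs of hours). The number thus pairs the wild-type time course. Among morpholino libraries r ran from 0.124 to 0.426 for number 1 and from 0.250 to 0.535 for number 3. For number 2 it ran from 0.0274 to 0.189 (over 0.1 in 7 of 10 pairs of hours). Across the arms, at the same hour, r ran from -0.059 to 0.185 and was over 0.1 in 4 of 10 pairs. Whether the number pairs the arms was therefore not settled.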

Additional observations from a re-analysis of the deposited data

Results flagged for a closer look

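The receptor ptch1 stood lower in all 3 morpholino libraries than in both wild-type libraries at 12 hpf and higher in all 3 at 14 hpf. The difference between the 2 hourly differences was 0.51 ± 0.59 (SE, log2) in edgeR's quasi-likelihood test (adjusted p = 0.9999 over all transcripts), so it was not shown to differ between the hours.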

How the results depend on the processing

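Shares in brackets are those of all transcripts called. The number of Hedgehog transcripts called for the mean difference was 1 of 8 (27%). It became 2 with DESeq2 (33.5%), 0 with the replicate block (20.2%) and 4 without morpholino replicate 3 (36.8%). It became 0 from 14 to 16 hpf alone (8.17%) and 0 on either set of sums over the hours (0%). Leaving out single libraries gave 0 to 3 (16.2% to 34.2%). Hourly calls went from 0 to 2 without replicate 3, both at 12 hpf (0.0472% and 4.38%). Wild-type slope calls, 0 at first (2.19%), became 2 with DESeq2 (8.96%) and 4 without replicate 3 (40.3%). With the replicate block they became 2, shared (20.5%) or per arm (19.2%). Morpholino slope calls, 1 at first (17.7%), became 3 with DESeq2 (24.9%) and 4 without replicate 3 (45.1%). With the block they became 3, shared (34.3%) or per arm (32.8%). Leaving out single libraries gave 0 to 2 for both. Calls against wild type 2 hours younger, 0 at first (2.23%), became 1 with DESeq2 (5.78%) and 5 without replicate 3 (17.1%). Single omissions gave 0 to 1. Whether the replicate number pairs the arms was not settled, and the block ended the hhip call of the mean difference at -0.40 (adjusted p = 0.0999). Neither another filter, another scaling nor summing per symbol moved these counts by more than 1.5 times. The cause was not tested.

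Signs turned only in values that were not called. The mean difference of dhh was -0.14 with library totals and -0.021 on 4 sums (single omissions -0.059 to 0.062). That of ptch1 was 0.053 with the block, 0.037 without replicate 3, 0.022 from 14 to 16 hpf, 0.035 on 5 sums and 0.029 on 4 (single omissions -0.088 to 0.069). Against younger wild type, hhip was 0.0040 with DESeq2's size factors, 0.0044 with DESeq2, 0.11 with the block and 0.13 without replicate 3 (single omissions -0.11 to 0.13), shh was 0.022 with the block (-0.12 to 0.028) and ptch1 ran from -0.26 to 0.0040. Wild-type slopes of gli2 and gli3 were 0.027 and 0.016 with library totals (single omissions -0.028 to 0.012 and -0.038 to 0.00042), and that of shh ran from -0.025 to 0.13. The morpholino slope of gli3 was 0.021 with library totals and 0.014 without replicate 3 (-0.093 to 0.077), and that of gli2 ran from -0.12 to 0.037. Slope differences were 0.050 for ptch1 (-0.094 to 0.064) and 0.066 for gli1 (-0.11 to 0.045) without replicate 3, and for gli3 -0.012 with the block and -0.013 with the block per arm (-0.075 to 0.097); single omissions gave -0.041 to 0.12 for hhip and -0.11 to 0.046 for gli2.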
